A study of Mus musculus with 4 samples.

Results

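The NR4A, EGR and AP-1 immediate-early genes were followed across 4 RNA sequencing libraries of mouse periosteal macrophages. They are the 3 nuclear receptor genes Nr4a1, Nr4a2 and Nr4a3, the 3 zinc finger genes Egr1, Egr2 and Egr3, and the 4 AP-1 genes Fos, Fosb, Jun and Junb. The 10 genes were found by symbol out of 17532 genes listed for either macrophage subset. All 10 were listed for the ACE+ subset and 9 for the CD74+ subset, where Egr3 was not listed and its reads were worked out from the mean that the authors deposited over all libraries. The macrophages were CD45+ cells sorted from the periosteum, the membrane around bone, of wild type C57BL/6 male mice at postnatal day 28. One sort took CX3CR1+ACE+ cells and the other CX3CR1+CD74+ cells. Both were cultured in DMEM with serum and 10 ng/ml M-CSF, the macrophage growth factor, so the vehicle cells were also under growth factor stimulation. Cells received recombinant mouse periostin, a secreted matrix protein that binds integrins, at 500 ng/ml, or PBS as vehicle, and RNA was taken after 24 h. Each of the 4 groups held 1 library. The labels do not say how many mice or cultures went into a library, so no difference within a subset has a replicate spread behind it.

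Immediate-early genes are transcribed within minutes of a stimulus without new protein synthesis, because their promoters are bound in advance by factors such as CREB and the SRF and TCF pair that kinases of the ERK, JNK, p38 and protein kinase A pathways switch on. Their transcripts are short-lived, and the first hours after periostin were not sampled here. NR4A proteins are nuclear receptors that act without a known classical hormone. EGR proteins bind GC-rich sites and are held back by the NAB corepressors, and FOS and JUN proteins pair through leucine zippers to form AP-1. In the myeloid lineage Nr4a1 is needed for the patrolling monocytes with low Ly6C, and Fos is needed for osteoclasts to form.

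Levels are in CPM, here the authors' scaled reads per 1000000 of an average library. Folds are ratios of CPM, and the 95% interval in brackets after each is exact and covers counting error only. A gene is said to have risen or fallen where log2(CPM + 1) moved by at least 2-fold. It entered a comparison if it was listed for every subset compared and the higher library had at least 1 CPM. Where 4 values follow each other, ACE+ comes before CD74+ and, within each subset, vehicle before periostin. In that order the libraries held 15471245, 19798150, 16650349 and 11846312 listed reads. The 10 genes took 0.0474% to 0.0744% of the listed reads of a library. All 8 macrophage markers examined, among them Csf1r and Adgre1, were detected in all 4 libraries, with summed levels of 974, 1117, 1709 and 1816 CPM. Cd68 alone had 576, 675, 1191 and 1327 CPM. With vehicle 7 of the 8 were higher in CD74+ than in ACE+ cells and 1 lower, and with periostin 5 were higher and 3 lower. Adgre1 had 54.5, 39.7, 34.9 and 19.4 CPM. With periostin in CD74+ cells 4 of the 8 were higher and 4 lower. Markers of other cell types were present as well. The 8 neutrophil markers summed to 20309 and 24872 CPM in ACE+ vehicle and periostin and to 11108 and 18047 CPM in CD74+ vehicle and periostin. The 5 B cell markers summed to 512, 430, 22.9 and 16.1 CPM in the same order, with Pax5 at 0 in both CD74+ libraries. The 6 erythroid markers summed to 1335, 1587, 234 and 416 CPM, the 7 chondrocyte markers to 209, 743, 1186 and 893 CPM, and the 7 osteoblast and fibroblast markers to 992, 786, 305 and 272 CPM. The 5 endothelial markers summed to 179 to 312 CPM, and the 5 T and NK cell markers measured of 6 summed to 1.76 to 6.97 CPM, with Cd3e at 0 in CD74+ vehicle and Cd3d, Cd3g and Nkg7 at 0 in CD74+ periostin. The part of these cells in the levels below was not tested, and in such bulk libraries fewer cells of a type and less RNA per cell cannot be told apart.

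**Figure D1:**
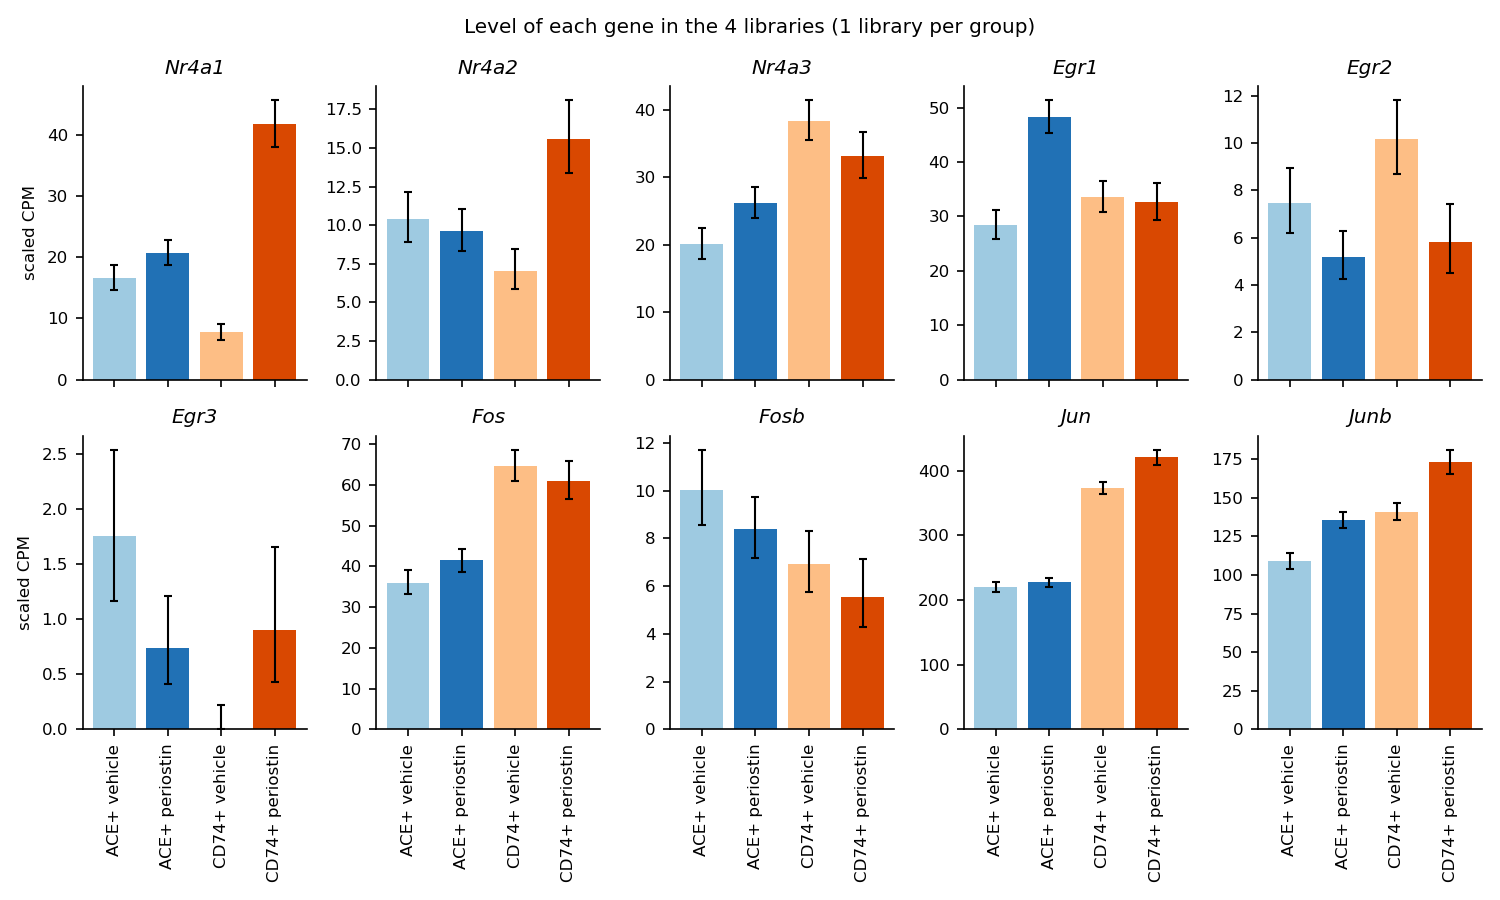
Level of each immediate-early gene in each library. Each panel is a gene, the vertical axis is scaled CPM from 0 on a scale of its own, the columns are the 4 libraries (1 per group) and the whiskers are exact 95% counting intervals. Nr4a1 spans 7.71 CPM in CD74+ vehicle to 41.7 CPM in CD74+ periostin, Egr1 stands out in ACE+ periostin at 48.3 CPM, and Jun and Fos are higher in both CD74+ libraries than in both ACE+ libraries.

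Nr4a1 had the widest range of the 9 members detected in all 4 libraries, and it rose with periostin in CD74+ cells. Nr4a1 (ENSMUSG00000023034, GRCm38 chr15:101254269-101274795, plus strand) encodes Nur77. It had 264, 422, 129 and 465 reads in the 4 libraries, which are 16.6, 20.7, 7.71 and 41.7 CPM. The CD74+ vehicle library was the lowest of the 4 and the CD74+ periostin library the highest, with the ACE+ libraries between them. The fold of periostin over vehicle was 5.41 (4.44 to 6.63) in CD74+ cells, the 27th highest log2 change of 13865 genes, and 1.25 (1.07 to 1.46) in ACE+ cells.

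Nr4a2 (ENSMUSG00000026826, chr2:57106830-57124003, minus strand) encodes Nurr1, known for its part in dopamine neurons. Its levels were 10.4, 9.62, 7.06 and 15.6 CPM, from 166, 196, 118 and 174 reads. As for Nr4a1, the extremes were the CD74+ libraries, lowest with vehicle and highest with periostin. Nr4a2 rose by 2.21-fold (1.74 to 2.82) in CD74+ cells, while its fold in ACE+ cells was 0.923 (0.747 to 1.14). Its log2 change in CD74+ cells was 1.04, close to the 2-fold line, and it came to 0.96 when the libraries were scaled to their column totals.

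Nr4a3 (ENSMUSG00000028341, chr4:48045153-48086447, plus strand), which encodes Nor1, was arranged differently. Its levels were 20.1, 26.1, 38.3 and 33.1 CPM in the same order, from 320, 533, 641 and 369 reads, so that both CD74+ libraries lay above both ACE+ libraries. The fold with periostin was 1.30 (1.13 to 1.501) in ACE+ cells and 0.864 (0.758 to 0.983) in CD74+ cells, neither past 2-fold. Summed over the 3 receptors, NR4A levels were 47.0, 56.5, 53.1 and 90.4 CPM, a fold of 1.20 (1.09 to 1.32) in ACE+ cells and 1.70 (1.55 to 1.87) in CD74+ cells.

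The windows just upstream of the NR4A starts are shown because Nr4a1 and Nr4a2 moved together in CD74+ cells and Nr4a3 did not. Those of Fos and Egr2 are shown as examples of the members that stayed within 2-fold in CD74+ cells. Each is RefSeq sequence on build GRCm38.p6, written 5′ to 3′ along the gene, with the CREB half-site TGACG in capitals. Its reverse reading is CGTCA. Capitals in Egr2 also mark CCATATATGG, a CArG box of the kind that SRF binds.
Nr4a1 chr15:101266596-101266845 (+ strand): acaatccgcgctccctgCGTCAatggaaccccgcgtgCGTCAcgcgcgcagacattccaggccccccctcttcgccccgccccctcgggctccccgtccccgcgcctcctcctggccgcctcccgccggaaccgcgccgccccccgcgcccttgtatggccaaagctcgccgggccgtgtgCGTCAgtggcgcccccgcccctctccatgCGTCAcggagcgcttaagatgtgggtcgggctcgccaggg
Nr4a2 chr2:57124004-57124253 (- strand): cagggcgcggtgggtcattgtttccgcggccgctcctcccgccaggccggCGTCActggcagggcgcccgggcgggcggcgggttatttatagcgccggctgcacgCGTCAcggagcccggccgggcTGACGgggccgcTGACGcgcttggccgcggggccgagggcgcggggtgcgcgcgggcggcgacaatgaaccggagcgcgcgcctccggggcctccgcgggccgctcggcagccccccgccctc
Nr4a3 chr4:48045055-48045152 (+ strand): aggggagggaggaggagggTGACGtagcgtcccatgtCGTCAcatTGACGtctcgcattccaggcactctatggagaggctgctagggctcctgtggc
Fos chr12:85473740-85473889 (+ strand): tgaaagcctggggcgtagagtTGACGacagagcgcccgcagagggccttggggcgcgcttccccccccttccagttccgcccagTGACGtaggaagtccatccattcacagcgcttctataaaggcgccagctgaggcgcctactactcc
Egr2 chr10:67537719-67537868 (+ strand): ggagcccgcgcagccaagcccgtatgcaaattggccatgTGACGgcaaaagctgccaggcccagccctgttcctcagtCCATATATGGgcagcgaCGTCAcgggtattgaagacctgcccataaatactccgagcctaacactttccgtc
The Nr4a1 and Nr4a2 windows run from 250 bases before the start to the base before it, and the Fos and Egr2 windows from 150 bases before. The Nr4a3 window covers the 98 bases from −250 to −153 relative to its start, where it was cut because an annotated exon begins. It shows 3 half-sites, and a further one at −147 to −143 lies past the cut. The Egr2 window belongs to 1 of the 5 starts listed for it, picked because its upstream bases hold both a CArG box and the half-site. The Nr4a1 and Egr2 windows lie inside the coordinates given in the text for these genes. For Nr4a1, with 1 start listed, bases before those coordinates were not read. Upstream windows were read for 8 of the 10 genes, all but Egr1 and Egr3. Searched on both strands over the 250 bases before a start, the half-site TGACG lay in 17.8% of all 32851 windows and in 7 of the 8 members. For this and the sites below a member counts if any of its starts has the site, while the percentages count windows. Sites numbered 4 each in Nr4a1, Nr4a2 and Nr4a3, 2 in Fos, 1 each in Fosb and Junb, and none in Jun. Egr2 had 2 at some of its 5 starts and none at others. The complete site TGACGTCA, which contains the half-site, lay in 1.55% of windows and in no member. The CArG box lay in 1.47% of windows and in Egr2 alone of the 8 members. Bases farther upstream were not searched for any site, so a site there would be missed. The EGR site GCGNGGGCG lay in 4.70% of windows and in Nr4a1, Nr4a2 and Fosb, and the AP-1 site TGANTCA (6.75% of windows) and the NR4A monomer site AAAGGTCA (1.34%) lay in no member. At the RefSeq starts used, the NR4A genes thus had the same number of half-sites over the 250 bases. Any part of these sites in their levels was not tested.

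Egr1 had its high level in a single library, ACE+ periostin. Egr1 (ENSMUSG00000038418, chr18:34859823-34864984, plus strand) is a growth factor response gene of many tissues. Its levels were 28.5, 48.3, 33.6 and 32.6 CPM, from 454, 984, 562 and 363 reads. The other 3 libraries lay within 28.5 to 33.6 CPM. The fold was 1.70 (1.52 to 1.90) in ACE+ cells, the 544th highest of 14734 log2 changes, and 0.969 (0.847 to 1.11) in CD74+ cells. On the log2 scale the ACE+ change was 0.74, which did not reach 2-fold.

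Egr2 (ENSMUSG00000037868, chr10:67535475-67542188, plus strand) directs myelination in Schwann cells and is induced in alternatively activated macrophages. Its levels were 7.46, 5.20, 10.2 and 5.83 CPM, from 119, 106, 170 and 65 reads. Periostin libraries were the lower of the pair in both subsets, with folds of 0.697 (0.531 to 0.913) in ACE+ cells and 0.574 (0.424 to 0.768) in CD74+ cells, neither past 2-fold. Egr3 (ENSMUSG00000033730, chr14:70077203-70082614, plus strand), known from muscle spindles and T cells, was close to the limit of detection, with 28, 15, 0 and 10 reads, or 1.76, 0.736, 0 and 0.897 CPM. The 0 in CD74+ vehicle was not listed but rests on the step above, which took 1 of the 2 CD74+ libraries as 0. A count of 0 allows up to 3 reads, 0.179 CPM in CD74+ vehicle. Against that limit of 3 reads Egr3 was at least 5.001-fold higher with periostin in CD74+ cells, from 10 reads and below the 1 CPM filter. That bound takes the 10 reads as exact, and the 95% interval of the ratio, which counts their error too, starts at 3.36. Its fold in ACE+ cells was 0.419 (0.208 to 0.812) from 28 and 15 reads. The EGR sum was 37.7, 54.2, 43.8 and 39.3 CPM, a fold of 1.44 (1.30 to 1.59) in ACE+ cells and 0.898 (0.796 to 1.01) in CD74+ cells.

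The AP-1 genes made up most of the summed level, and none of the 4 passed 2-fold with periostin in either subset. Jun (ENSMUSG00000052684, chr4:95049034-95052222, minus strand) encodes the c-Jun partner of FOS proteins. It had 3508, 4632, 6244 and 4688 reads, or 220, 227, 373 and 421 CPM,. The subset separated the libraries more than the treatment did, with folds for periostin of 1.03 (0.988 to 1.08) in ACE+ cells and 1.13 (1.08 to 1.17) in CD74+ cells. Junb (ENSMUSG00000052837, chr8:84974484-84978718, minus strand), whose product limits c-Jun in many cells, had 109, 136, 141 and 173 CPM from 1737, 2763, 2359 and 1933 reads. Its folds were much alike in the subsets, 1.24 (1.17 to 1.32) in ACE+ cells and 1.23 (1.16 to 1.31) in CD74+ cells. Of the exonic bases of Jun 7.28% overlap the antisense gene Junos, and of those of Junb 7.52% overlap Prdx2 on the other strand. The sources used here do not give the strand setting of the counting.

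Fos (ENSMUSG00000021250, chr12:85473890-85477273, plus strand), the gene needed for osteoclasts, had 36.0, 41.5, 64.7 and 61.0 CPM from 574, 845, 1082 and 680 reads. Both CD74+ libraries lay above both ACE+ libraries, and the periostin folds were 1.15 (1.03 to 1.28) in ACE+ and 0.943 (0.855 to 1.04) in CD74+ cells. Fosb (ENSMUSG00000003545, chr7:19302696-19310051, minus strand) encodes a close relative of Fos. Its levels of 10.0, 8.39, 6.94 and 5.56 CPM, from 160, 171, 116 and 62 reads, were lower in the CD74+ libraries, with periostin folds of 0.836 (0.670 to 1.04) and 0.802 (0.579 to 1.10). The 4 AP-1 genes summed to 375, 413, 586 and 661 CPM, a fold of 1.10 (1.06 to 1.14) in ACE+ cells and 1.13 (1.09 to 1.16) in CD74+ cells.

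**Figure D2:**
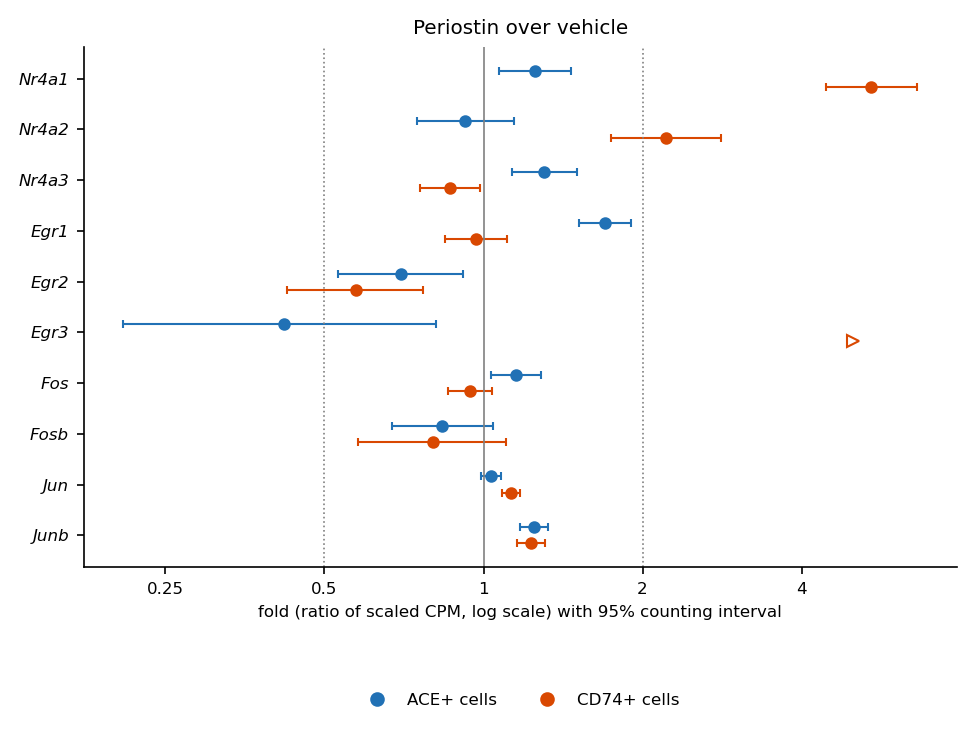
Fold of periostin over vehicle for each gene in each subset. The horizontal axis is the ratio of scaled CPM on a log scale, the points are ratios of 1 library to 1 library, the bars are exact 95% counting intervals, and the dotted lines mark 2-fold. The open triangle marks 5.001-fold, the ratio to the limit of 3 reads, for Egr3 in CD74+ cells, where vehicle had 0 reads. Nr4a1 (5.41) and Nr4a2 (2.21) in CD74+ cells lie past the upper line, and the ratio of Egr3 in ACE+ cells (0.419, from 28 and 15 reads) lies past the lower line without reaching 2-fold on log2(CPM + 1).

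As a group, none of the 10 members rose or fell with periostin in ACE+ cells, where 1.47% of the 14734 genes compared rose and 1.30% fell. Of the 10, 6 had a higher and 4 a lower level with periostin, and their median log2 change was 0.12 against 0.00 for all genes. In CD74+ cells, 9 members passed the filter, Nr4a1 and Nr4a2 rose and none fell, where 6.69% of the 13865 genes compared rose and 5.25% fell. There 4 members were higher and 5 lower with periostin, and the median log2 change was −0.04 against 0.02 for all genes, on either side of 0 under other settings. So the larger movement in CD74+ cells belonged to 2 of 9 genes and not to the group.

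In CD74+ cells the log2 change of a gene also moved with its length. The median ran from 0.45 in the decile of the shortest genes to −0.28 in that of the longest, against 0.06 to −0.04 in ACE+ cells. Nr4a1 is in length decile 4, whose median was 0.11, and Nr4a2 in decile 6, whose median was 0.00. With that trend subtracted, the log2 change was 2.18 for Nr4a1 and 1.04 for Nr4a2, so both stayed past 2-fold, while Junb came to 0.13 from 0.30. The change moved with GC content in both subsets, with medians from −0.15 in the decile of lowest GC to 0.10 in that of highest in ACE+ cells and from −0.06 to 0.18 in CD74+ cells. With that trend subtracted the log2 change of Egr1 in ACE+ cells was 0.65.

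**Figure D3:**
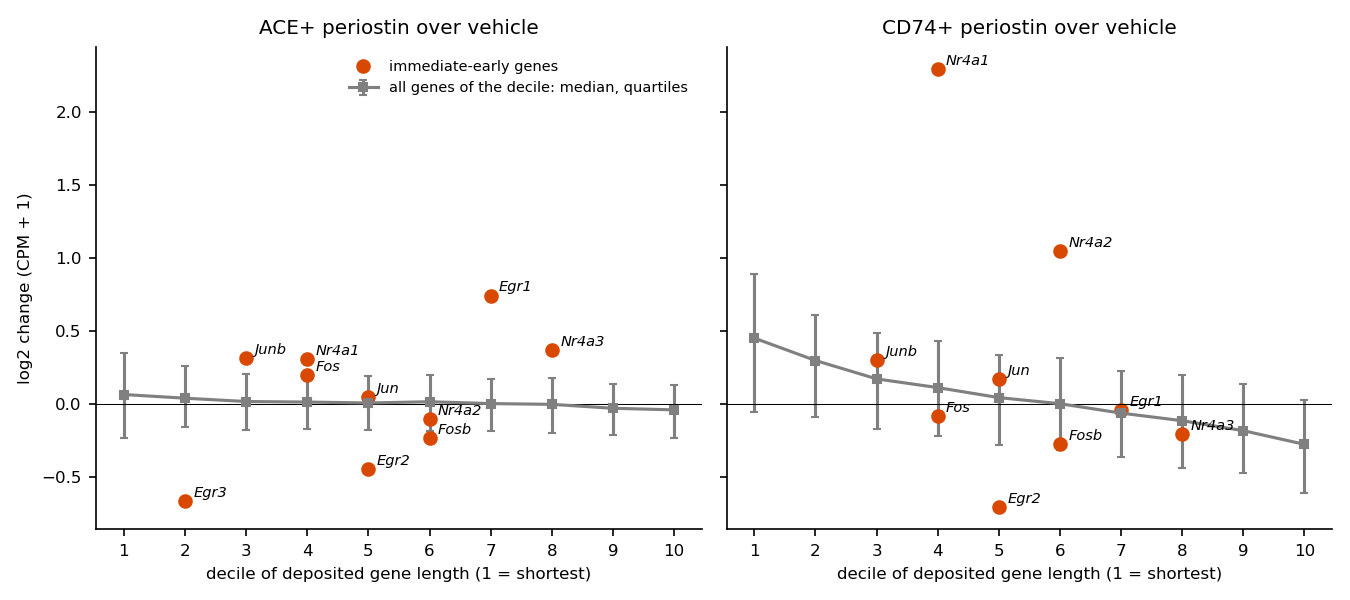
Periostin change against gene length. The horizontal axis is the decile of genes by deposited length, the vertical axis is the log2 change with periostin on log2(CPM + 1), the lines are medians over all genes with their quartiles, and the points are the immediate-early genes. In CD74+ cells the median falls from 0.45 to −0.28, and Nr4a1 at 2.29 lies far above the median of 0.11 in its decile.

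The subsets were also compared with each other. With vehicle, Nr4a1 was lower in CD74+ cells, at a fold of 0.466 (0.374 to 0.577), or 2.15-fold lower (1.73 to 2.67). It was the 1 member of 9 past 2-fold, where 3.64% of 13393 genes were higher and 7.73% lower by that rule, so the members' share was close to that of all genes. Fos was higher by a fold of 1.80 (1.62 to 1.99), Nr4a3 by 1.91 (1.67 to 2.19) and Jun by 1.70 (1.63 to 1.77), each within 2-fold. Nr4a2 had a fold of 0.678 (0.531 to 0.863) and Fosb 0.691 (0.539 to 0.883), so the members lay on both sides, with a median log2 difference of 0.37 against −0.000815 for all genes. Egr1, Egr2 and Junb had folds of 1.18 (1.04 to 1.34), 1.36 (1.07 to 1.74) and 1.29 (1.22 to 1.38). Egr3, left out of the count because it was not listed for the CD74+ subset, was at least 9.79-fold lower in CD74+ vehicle by the limit of 3 reads. At the near end of the exact 95% interval it was 7.45-fold lower. With left-out genes included, Nr4a1 and Egr3 made 2 of 10 members past 2-fold, both lower. By that count 570 of 14735 genes were higher and 1512 lower. The AP-1 sum was 1.56-fold higher in CD74+ cells with vehicle and 1.60-fold higher with periostin.

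With periostin, Nr4a1 was on the other side. Its level was 2.01-fold (1.76 to 2.30) that of ACE+ cells, a log2 difference of 0.98 that ended just short of 2-fold. None of 9 members passed 2-fold, where 6.94% of 13681 genes were higher and 10.4% lower in CD74+ cells. Jun had a fold of 1.85 (1.78 to 1.93), Nr4a2 1.62 (1.32 to 2.001), Fos 1.47 (1.33 to 1.63), Junb 1.28 (1.21 to 1.36) and Nr4a3 1.27 (1.11 to 1.45). Egr1 had a fold of 0.675 (0.596 to 0.762) and Fosb 0.663 (0.488 to 0.891). Egr2 had a fold of 1.12 (0.810 to 1.54) and Egr3, below the filter, 1.22 (0.490 to 2.90), so their intervals hold 1. Of the 9, 7 were higher in CD74+ cells and 2 lower, with a median log2 difference of 0.35 against 0.00 for all genes.

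**Figure D4:**
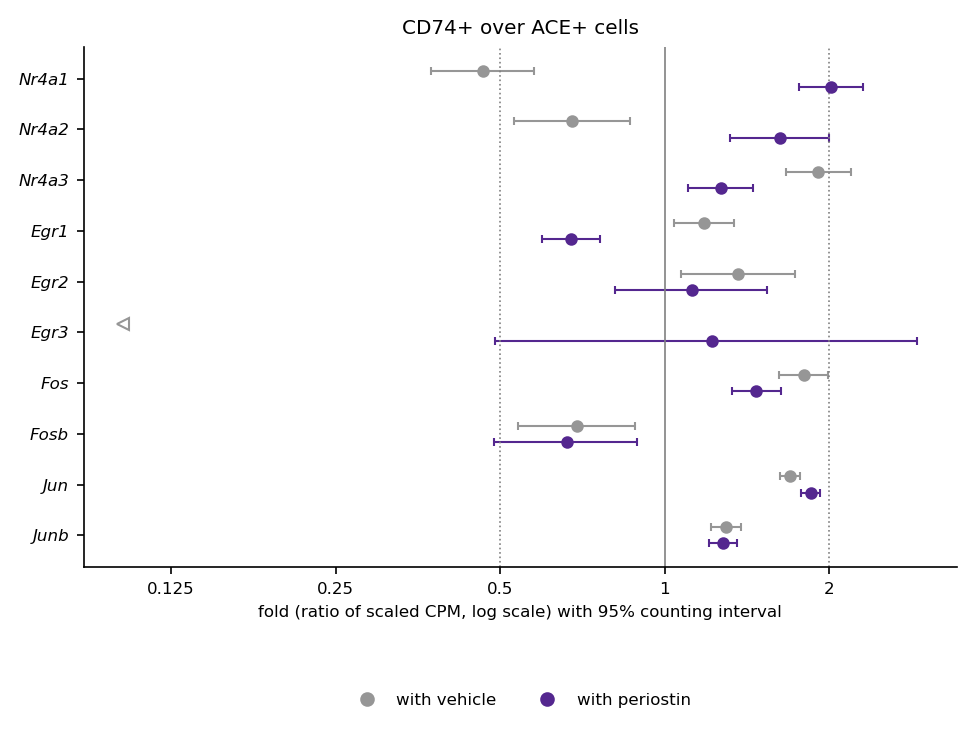
Fold of CD74+ over ACE+ cells for each gene, with vehicle and with periostin. The horizontal axis is the ratio of scaled CPM on a log scale, the points are ratios of 1 library to 1 library, the bars are exact 95% counting intervals, and the dotted lines mark 2-fold. The open triangle marks 9.79-fold lower, the ratio to the limit of 3 reads, for Egr3 with vehicle. Nr4a1 goes from 0.466 with vehicle to 2.01 with periostin, while Jun (1.70 and 1.85) and Junb (1.29 and 1.28) differ little between treatments.

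The response itself was compared by subtracting the ACE+ log2 change from the CD74+ log2 change. It was more positive in CD74+ cells by 1.99 for Nr4a1 and by 1.15 for Nr4a2, which made 2 of 9 members past 2-fold, where 7.09% of 13837 genes were more positive and 6.48% more negative by that rule. A larger difference in that direction was seen in 0.940% of genes for Nr4a1 and in 5.36% for Nr4a2. Egr1 differed by −0.79, Nr4a3 by −0.57, Fos by −0.28 and Egr2 by −0.26. Jun, Fosb and Junb differed by 0.13, −0.04 and −0.02. With 1 library per group these differences could not be tested.

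The only comparison with a test was the periostin effect common to both subsets. Subset was a block, 1 residual degree of freedom was left, and any difference between the subsets entered as error. The fit moderated that error with a spread estimated over all genes, so the SE of a gene is not the gap between its own responses. For Nr4a1 those responses were unlike, log2 changes of 0.31 in ACE+ cells and 2.29 in CD74+ cells. In edgeR's quasi-likelihood test with Benjamini-Hochberg adjustment, Nr4a1 had a log2 effect of 1.36 with SE 0.33 and adjusted p = 0.0307, higher with periostin in 2 of 2 subsets. It was the 1 member called of 9, where 20 of 13837 genes, 0.145%, were called. The adjusted p of the other 8 members was 0.814 or more, with log2 effects between −0.66 and 0.51. The call was lost in 2 alternatives. Nr4a1 had adjusted p = 0.207 with DESeq2's size factors within edgeR and 0.9997 in DESeq2, within a range of 0.0203 to 0.9997 over the settings tried.

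By level per kilobase of the deposited length, the order of the genes was much alike in the 4 libraries. Jun, Junb and Fos came first in all of them, at 69.0, 59.2 and 15.3 CPM per kilobase in ACE+ vehicle and 132, 94.2 and 25.9 in CD74+ periostin. Junb was above Jun in ACE+ periostin alone, at 73.7 and 71.3, with counting intervals that overlap. Nr4a1 took the fourth place in ACE+ vehicle (6.69, overlapping Egr1 at 6.35), the fifth in ACE+ periostin (8.37, below Egr1 at 10.8), the sixth in CD74+ vehicle (3.12, overlapping Egr2 at 2.99) and the fourth in CD74+ periostin (16.9, above Egr1 at 7.26). Fosb and Nr4a2 overlapped in ACE+ vehicle, ACE+ periostin and CD74+ vehicle, as did Nr4a3 and Fosb and Nr4a2 and Egr2 in ACE+ vehicle, and Egr1 and Nr4a3 in CD74+ vehicle. Egr3 was lowest in every library, overlapping Fosb, and Fosb overlapping Egr2, in CD74+ periostin. The deposited length was shorter than the joined exons of the GENCODE gene for Nr4a1 (2474 and 3509 bases), Egr3 (1416 and 4406), Fosb (3751 and 6243) and Junb (1840 and 2301). With the GENCODE length the level of Nr4a1 in ACE+ vehicle was 4.72 CPM per kilobase in place of 6.69.

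Other genes of the early response were examined as 6 lists. Of 22 other early response transcription factors, among them Jund, Atf3 and Klf2, none rose or fell in either subset. In CD74+ cells 19 of the 22 had a higher level with periostin, where 51.4% of all genes did. Their median log2 change was 0.33 against 0.02 for all genes. After the length trend was subtracted the median was 0.25, with 18 of 22 higher. In ACE+ cells 14 of 22 were higher with periostin, where 50.6% of all genes were, with a median of 0.04. There 11 of 22 were higher after the length trend was subtracted. No test was made on the lists. In CD74+ cells the genes with the largest changes were Batf, a leucine zipper partner of JUN proteins, from 7.41 to 13.9 CPM, and Jund from 89.98 to 142 CPM, while Maff went from 18.8 to 15.2 CPM and Atf3 from 231 to 195 CPM. In ACE+ cells Batf3 went from 2.32 to 4.07 CPM and Klf10 from 35.0 to 51.1 CPM, against Batf from 8.09 to 5.59 CPM and Nfil3 from 40.4 to 31.3 CPM.

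The regulators upstream of these genes had 0 to 2 members past 2-fold in each list. The all-gene shares were 6.69% (rose) and 5.25% (fell) in the CD74+ comparison and 1.47% and 1.30% in the ACE+ comparison, so nothing is read from such counts in lists this short, and the genes are given for their values. Of 15 SRF, TCF and CREB genes none rose or fell in ACE+ cells, and in CD74+ cells only Elk1, a TCF factor, fell, from 25.1 to 6.73 CPM, or 3.73-fold lower (2.91 to 4.84). Srf went from 48.1 to 70.8 CPM and Mef2d from 121 to 155 CPM in CD74+ cells, and Crem from 14.9 to 9.60 CPM. In ACE+ cells Mkl2 went from 21.1 to 30.5 CPM and Crtc3 from 27.6 to 37.1 CPM, against Atf1 from 119 to 97.1 CPM and Elk4 from 83.6 to 73.3 CPM. Of the ERK, JNK and p38 kinase genes, Map2k6, which activates p38, rose in ACE+ cells from 1.94 to 5.89 CPM, a fold of 3.03 (2.03 to 4.65), as 1 of 15, and Mapk8, which encodes JNK1, fell in CD74+ cells from 26.5 to 7.18 CPM, 3.69-fold lower (2.90 to 4.74), as 1 of 14. The ERK1 gene Mapk3 went from 194 to 239 CPM in CD74+ cells, Map2k2 from 194 to 219 CPM and Rps6ka3 from 72.8 to 50.4 CPM. In ACE+ cells Rps6ka1 went from 126 to 147 CPM, Mapk9 from 43.0 to 33.7 CPM and Rps6ka3 from 79.0 to 65.3 CPM. Of the MAPK feedback genes, Spry1 rose in CD74+ cells from 4.78 to 19.7 CPM, a fold of 4.13 (3.18 to 5.40), and the ERK and JNK phosphatase gene Dusp4 fell from 46.0 to 21.2 CPM, 2.17-fold lower (1.88 to 2.53), as 2 of 13. In ACE+ cells Spry1 went the other way, from 12.3 to 7.70 CPM, and none of 14 rose or fell. Dusp10 went from 66.7 to 43.3 CPM there, Dusp16 from 20.8 to 26.4 CPM and Spry4 from 3.01 to 4.22 CPM, and in CD74+ cells Dusp2 went from 4.96 to 8.79 CPM and Spred2 from 27.4 to 15.7 CPM.

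Among the partners, Rxra, the gene of the retinoid receptor that pairs with Nr4a1 and Nr4a2, fell in CD74+ cells from 43.2 to 21.0 CPM, 2.06-fold lower (1.77 to 2.40), as 1 of 6. Nab2, an EGR corepressor, went from 13.9 to 24.6 CPM there, a fold of 1.77 (1.48 to 2.12) within 2-fold, and Nab1 from 78.7 to 88.5 CPM and Ncor1 from 285 to 210 CPM. None of 6 partners rose or fell in ACE+ cells, where Rxrb went from 57.4 to 75.3 CPM, Ncor1 from 302 to 285 CPM and Nab1 from 91.0 to 90.1 CPM. Of 11 heat shock genes, which stress of the cells is known to raise, none rose or fell with periostin in either subset. Between subsets 2 of 11, Hspa1a and Hspa1b, were past 2-fold, both lower in CD74+ cells. Their log2 differences were −1.27 and −1.55 with vehicle, where 7.73% of all genes were lower by that rule. With periostin they were −1.37 and −1.53, where 10.4% were lower. Hspa1b went from 31.6 to 49.6 CPM in ACE+ cells and from 10.1 to 16.5 CPM in CD74+ cells, and Hspa1a from 52.1 to 80.0 CPM in ACE+ cells. Hsp90aa1 went from 340 to 279 CPM and Hspd1 from 151 to 132 CPM in ACE+ cells, and in CD74+ cells Hspb1 went from 7.77 to 13.0 CPM, Hspd1 from 184 to 150 CPM and Hsph1 from 76.9 to 64.1 CPM.

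**Figure D5:**
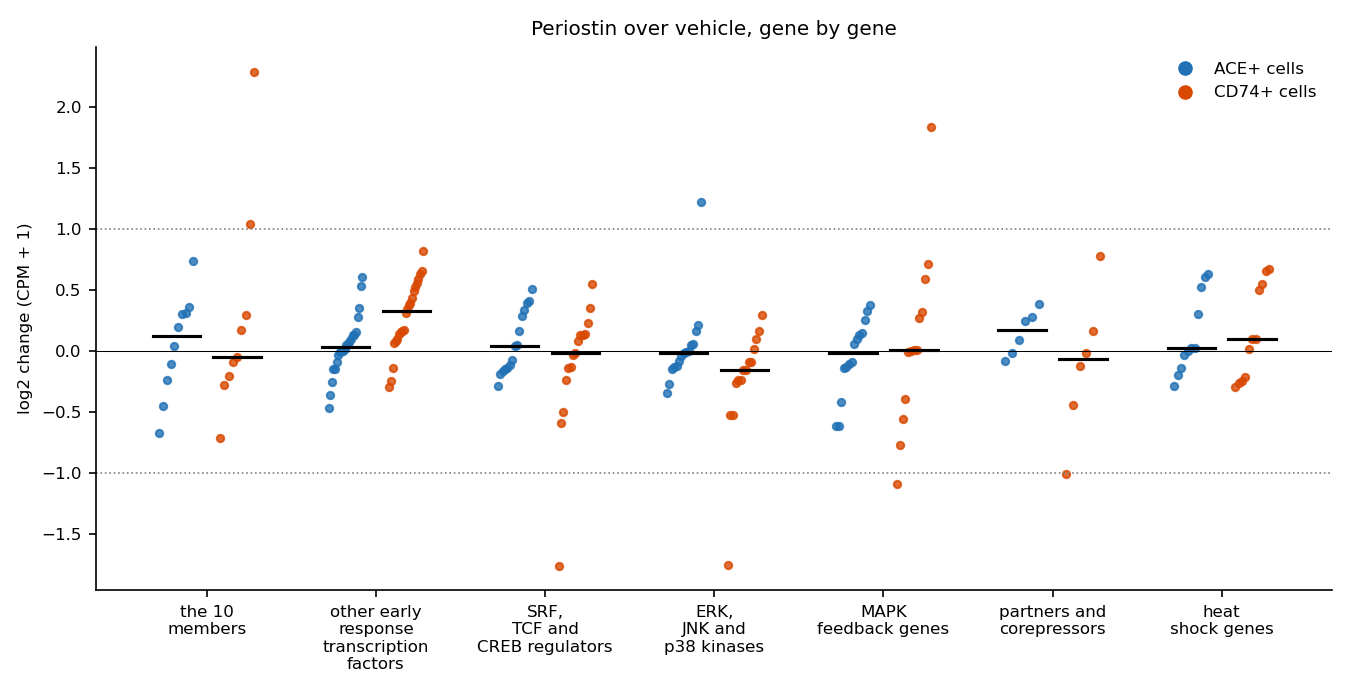
Periostin log2 change of the immediate-early genes (10 in ACE+ and 9 in CD74+ cells) and of each gene in the 6 companion lists. The vertical axis is the change on log2(CPM + 1), each point is a gene past the filter, the horizontal bars are medians and the dotted lines mark 2-fold. Most of the other early response factors in CD74+ cells lie above 0, with a median of 0.33 and no gene past 2-fold.

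The genes with profiles most like Nr4a1, by Euclidean distance between centred log2(CPM + 1) values over the 4 libraries among 10856 candidates, were Zcwpw1 (0.163), Zfp979 (0.351) and Ace (0.353). Ace, the gene of the sort marker, had 2.76, 2.80, 0.897 and 9.51 CPM in the same library order, lowest in CD74+ vehicle and highest in CD74+ periostin as Nr4a1 was. Nearest to Egr1 were Polr1e (0.045), Svbp (0.078) and Lsm7 (0.088), and nearest to Fos were Top3a (0.033), Nagpa (0.052) and Zfp142 (0.054). With 4 libraries such distances describe a shape and carry no test. In the authors' deposited enrichment sheets Egr1 was named in 21 of 637 terms of the ACE+ sheet, 7 of them with a Benjamini value under 0.05. In the same sheets Nr4a1 was named in 21 of 548 terms of the CD74+ sheet and Nr4a2 in 18, with 6 and 4 under 0.05, and no other member was named. The sources used here do not say how the authors chose the genes behind the sheets.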

How the data were processed

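Gene expression was measured by RNA sequencing of total RNA, with 1 library in each of 4 groups taken from the labels. HISAT2 and GRCm38 appear in the submitters' processing notes. The sources used here do not give the counter, its strand use or its annotation. The authors deposited 1 table per subset with a signal for each gene and library, found to be reads divided by 1 size factor per library: 100% of values were whole multiples of a step within 0.001 read, and whole reads were recovered. The analysis plan had allowed for counts or CPM, and these recovered reads were used in their place. One common scale holds across both tables, because for each of the 14398 shared genes the mean listed by the authors is that of its 4 values. The authors' log2 fold changes match plain column ratios within 0.00500 and made no calls, and the deposited Benjamini p-values of the enrichment sheets were used only to count terms.

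CPM were the scaled reads per 1000000 of the average column total. Changes were taken on log2(CPM + 1) for genes listed for every subset compared, with a filter of 1 CPM in the higher library and a 2-fold rule. Fold intervals are conditional binomial and level intervals exact Poisson. The common effect used edgeR 4.0.16 with TMM factors on the reads, with 20 genes called at an adjusted p of 0.05, and DESeq2 1.42.0 as an alternative. The fit was tested on simulated data. A median of 210 to 332 reads per listed gene set the precision, and 3 reads were taken as the limit that a count of 0 allows. Coordinates and GC content came from GENCODE M21 and upstream sequence from RefSeq. All 10 members were named throughout. From each list the rule named the 2 genes with the largest rise and the 2 with the largest fall per subset, and for Nr4a1, Egr1 and Fos the 3 nearest profiles. 1 gene that the rule named is not reported here. The members, lists and rules were chosen with earlier results of these data known.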

Additional observations from a re-analysis of the deposited data

Results flagged for a closer look

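Nr4a3 and Egr3 had periostin folds on opposite sides of 1 in the subsets, with counting intervals that leave 1 outside in both. For Nr4a3 the CD74+ log2 change less the ACE+ log2 change was −0.57, from folds of 1.30 in ACE+ cells and 0.864 in CD74+ cells. For Egr3 it was 1.59, which rests on 0 reads in CD74+ vehicle and 28, 15 and 10 reads in the other libraries. Its CD74+ reads were worked out with 1 of these libraries taken as 0. Neither difference was tested, since each group held 1 library.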

How the results depend on the processing

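Beyond subset as a block in the common effect, no pairing was possible, because each group held 1 library and the labels carry no replicate numbers. For the same reason no library could be left out. Of 449 single-gene values recomputed under other settings, 6 lost a call, 3 gained one and 0 reversed a called direction, and 10, each of Jun or Junb, moved by more than the half-width of their counting interval without a change of call. The other 430 kept their call or lack of one and, where uncalled in a comparison of 2 libraries, moved by less than that half-width. Of the 6, 4 fell below 2-fold and 2 are the common effect of Nr4a1 with DESeq2 or its size factors, where the log2 effect stayed at 1.37 and 1.36 and the adjusted p was above 0.05. Uncalled values near 0 changed sign for Egr1 in CD74+ cells with the length trend subtracted (−0.04 to 0.02) and for Jun in ACE+ cells with the GC trend subtracted (0.05 to −0.05). The members' median log2 change with periostin ran from 0.05 to 0.20 in ACE+ cells, and from −0.14 with column totals to 0.02 with the length trend subtracted in CD74+ cells. Counts of members past 2-fold changed as follows. With periostin in ACE+ cells the count of 0 became 1 (Egr3) with 0.1 CPM added and 2 (Egr1 and Egr3) at 1.5-fold. In CD74+ cells the count of 2 became 1 (Nr4a1) with 5 CPM added, 1 with scaling to column totals and 3 at 1.5-fold (Egr2 lower). Between subsets with vehicle the count of 1 became 0 with 5 CPM added, 4 at 1.5-fold and 2 with genes left out of a table included. Between subsets with periostin the count of 0 became 1 with 0.1 CPM added, 3 at 1.5-fold and 1 with the GC trend subtracted. For the difference of responses the count of 2 became 1 with 5 CPM added, 0 at 4-fold, 3 at 1.5-fold (Egr1 lower) and 3 with left-out genes included (Egr3). For the common effect the count of 1 became 0 in DESeq2, which called 2 genes, and 0 with DESeq2's size factors within edgeR, which called 5, and in both Nr4a1 was the 1 member with an unadjusted p under 0.05. The settings with left-out genes and the GC trend were chosen after seeing the data. Over all genes in CD74+ cells, 928 rose and 728 fell, against 780 and 871 with column totals, 436 and 546 at 5 CPM, 686 and 790 with the length trend subtracted, 126 and 209 with 5 CPM added, 1463 and 1031 with 0.1 CPM added, and 1112 and 1401 with left-out genes included. In ACE+ cells 217 rose and 191 fell, against 19 and 9 with 5 CPM added and 644 and 574 with 0.1 CPM added. Scaling to column totals shifted the median of all genes by −0.12 in the periostin comparison between subsets. The causes were not tested. At 1 library per group, Egr3 with at most 28 reads is the member that depth limits most.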
